A study of Mus musculus with 36 samples.

Results

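The genes described here encode the proteins of the cytosolic ribosome and their paralogs. They were all symbols of the gene table that begin with Rpl or Rps followed by a digit, Rplp followed by a digit, or equal Rpsa, without the Rps6k kinases, the Rps19 binding protein and 5 symbols marked -ps. The rule gave 85 of 23845 symbols: 46 core genes of the large subunit, 31 core genes of the small subunit and 8 paralogs, which are Rpl3l, Rpl7l1, Rpl10l, Rpl22l1, Rpl36al, Rpl39l, Rps4l and Rps27l. The RNA came from mouse embryos pooled in groups of 4 to 5, and SMART-seq v4, a full-length cDNA method, gave 36 libraries. The 2-cell stage (2C) is covered by NI (4 libraries), Ctrl (7) and KRAB (6), and the 8-cell stage (8C) by NI (6), Ctrl (6) and VP64 (7). The labels do not spell out NI and Ctrl. KRAB is a domain that represses transcription and VP64 one that activates it, and the series concerns the retrotransposon LINE-1 after fertilisation. For the construct, the strain and the hours of culture the labels used here have no entry, and KRAB and VP64 were each present at 1 stage only. Nothing in the labels says which pools came from separate matings or days, so the p-values measure the spread between these libraries.

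A ribosome has a small subunit, which reads the mRNA, and a large subunit, which joins amino acids and lets the new chain leave through the exit tunnel. Each subunit holds 1 copy of nearly every protein, so the genes are usually expressed together, and their mRNAs typically begin with a run of pyrimidines, the TOP motif, through which mTOR signalling and Larp1 control their translation. The mouse oocyte loads the egg with ribosomes and mRNA, much of that mRNA is degraded around the 2-cell stage, and the embryo's own genome takes over ribosome production during cleavage. Paralogs such as Rpl39l and Rpl10l are known from the male germ line, Rpl3l from heart and skeletal muscle, and Rps27l as a target of p53.

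Total counts ranged from 1043740 to 13583527 per library. The 10 markers of 2-cell embryos summed to 602 to 4240 CPM (counts scaled to the TMM-scaled library total) in the 2C libraries and to 10.7 to 189 in the 8C libraries. The 8 oocyte markers summed to 4980 to 45600 and 42.7 to 769. By these 2 lists the stages matched their labels in every library. The 10 markers of 8-cell embryos overlapped between the stages, at 257 to 3740 CPM in the 2C libraries and 1320 to 3990 in the 8C libraries. Markers of cumulus and granulosa cells, 16 genes from the cells around the egg, summed to more than 100 CPM in 4 libraries (KRAB 2C replicates 2 and 6, Ctrl 2C replicate 7 and VP64 8C replicate 6), with Amh and Ereg at 0 in NI, Ctrl and KRAB 2C. In VP64 8C, 8 of the 16 were at 0: Has2, Ptx3, Ptgs2, Cyp19a1, Vcan, Areg, Ereg and Fshr. No 2 libraries of a group held identical values, and the counts of every pair within a group differed by more than sampling noise.

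Coding sequences are shown for 2 pairs of paralog and parent, because the comparison of their levels rests on reads that can be told apart. They are the GENCODE vM21 reading frames on GRCm38 (mm10), 5′ to 3′, with the bases that differ within a pair in capitals.
Rpl39l: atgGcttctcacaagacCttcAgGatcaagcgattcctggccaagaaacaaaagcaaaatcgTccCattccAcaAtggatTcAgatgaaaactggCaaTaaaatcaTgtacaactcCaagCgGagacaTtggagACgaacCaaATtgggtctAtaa
Rpl39: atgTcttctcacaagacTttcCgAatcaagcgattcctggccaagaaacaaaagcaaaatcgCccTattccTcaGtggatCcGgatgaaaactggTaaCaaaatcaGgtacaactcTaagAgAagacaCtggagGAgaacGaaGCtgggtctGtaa
Rps27l: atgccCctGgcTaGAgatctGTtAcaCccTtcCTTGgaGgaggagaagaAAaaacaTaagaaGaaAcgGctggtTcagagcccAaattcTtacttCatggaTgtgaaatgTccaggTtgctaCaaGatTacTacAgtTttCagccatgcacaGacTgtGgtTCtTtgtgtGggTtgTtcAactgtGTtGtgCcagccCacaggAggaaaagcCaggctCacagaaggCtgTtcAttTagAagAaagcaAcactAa
Rps27: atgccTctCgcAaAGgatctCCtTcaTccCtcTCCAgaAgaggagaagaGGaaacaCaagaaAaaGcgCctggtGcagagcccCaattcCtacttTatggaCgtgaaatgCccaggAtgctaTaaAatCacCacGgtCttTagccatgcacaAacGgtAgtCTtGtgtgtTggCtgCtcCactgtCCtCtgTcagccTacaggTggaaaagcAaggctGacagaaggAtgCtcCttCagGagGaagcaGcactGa
Rpl39l (chromosome 16, 10170226 to 10174911, plus strand) and Rpl39 (chromosome X, 37082520 to 37085402, minus strand) differed at 23 of 156 bases, an identity of 85.3%, with a longest shared run of 38 bases. Rps27l (chromosome 9, 66946086 to 66949516, plus strand) and Rps27 (chromosome 3, 90212522 to 90213651, minus strand) differed at 61 of 255 bases, an identity of 76.1%, and shared at most 11 bases in a row. Across the 85 genes, 55 shared no 31-base word with another gene of the table, and 12 shared more than 20% of their words. Those 12 included Rplp2 (76.5%), Rpl22l1 (61.7%), Rpl31 (56.7%), Rpl14 (54.3%) and Rps15a (45.9%), whose levels are uncertain to that extent. Processed pseudogenes outside the table are a further source of shared reads, since 57 of the 85 genes shared more than 50% of their words with some other GENCODE transcript.

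The start regions were searched for a TOP-like run. In the RefSeq promoter table (GRCm38.p6, 1 start per gene), 57 of the 77 core genes and 7 of the 8 paralogs were found. A C followed by at least 7 bases that are each C or T, beginning within 10 bases of the annotated start on the transcribed strand, was present in 20 of 57 core genes (35.1%) against 8.03% of 27025 promoters. On the opposite strand the shares were 1.75% and 9.21%. A shorter run, a C followed by at least 4 such bases, which contains the longer one, was present in 54.4% of core genes, in 5 of 7 paralogs and in 30.8% of all promoters, and on the opposite strand in 21.1%, 0 of 7 and 34.2%. Windows of 30 bases with the annotated start at the 16th base are given for 7 core genes and 1 paralog that the results turn on, with and without a run. Capitals mark the longest run of C and T that begins with C and holds the shorter form.
Rpl14: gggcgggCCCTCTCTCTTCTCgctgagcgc
Rplp2: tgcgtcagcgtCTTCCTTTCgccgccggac
Rps27: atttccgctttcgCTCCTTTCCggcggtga
Rps27l: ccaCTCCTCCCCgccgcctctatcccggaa
Rpl5: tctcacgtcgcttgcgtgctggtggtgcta
Rps4x: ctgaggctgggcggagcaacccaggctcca
Rplp0: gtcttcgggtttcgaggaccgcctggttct
Rps28: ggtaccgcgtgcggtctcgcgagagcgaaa
The run lay across the annotated start in Rpl14 (chr9:120571502-120571531, plus strand), Rplp2 (chr7:141447636-141447665, plus strand) and Rps27 (chr3:90213634-90213663, minus strand), and ended before it in Rps27l (chr9:66946071-66946100, plus strand). None was found in the windows of Rpl5 (chr5:107900513-107900542, plus strand), Rps4x (chrX:102189377-102189406, minus strand), Rplp0 (chr5:115559452-115559481, plus strand) and Rps28 (chr17:33824548-33824577, minus strand). A match describes letters only, and an annotated start that is some bases off would move it out of the window.

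Ribosomal protein mRNA took a several-fold larger share of the counts at 8C than at 2C. In NI 2C the 4 libraries held 1.18%, 1.51%, 2.56% and 5.65% of their counts in the 85 genes, in Ctrl 2C 0.197% to 2.41% with a median of 0.914%, and in KRAB 2C 0.970% to 4.13% with a median of 1.52%. At 8C the shares were 5.81% to 14.9% (median 7.95%) in NI, 4.57% to 11.3% (median 8.19%) in Ctrl and 8.08% to 12.7% (median 8.58%) in VP64. The highest NI 2C library lay above the lowest Ctrl 8C library, while within Ctrl and within NI the stages did not overlap. The shares are relative to all mRNA of a library, so fewer or more embryo cells and less or more RNA per cell cannot be told apart. The spread was widest at 2C: Ctrl 2C replicates 1, 5 and 7 held 0.197%, 0.409% and 0.306%, and their total counts of 4440172, 8126251 and 10035066 were above those of Ctrl 2C replicates 4 and 6 (1543640 and 1043740), which held 2.20% and 2.41%. Ctrl 2C replicates 2 and 3 did not follow that order: with 7176488 and 7742233 counts they held 0.914% and 1.60%, more than replicate 1. The part of depth in this spread was not tested.

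**Figure D1:**
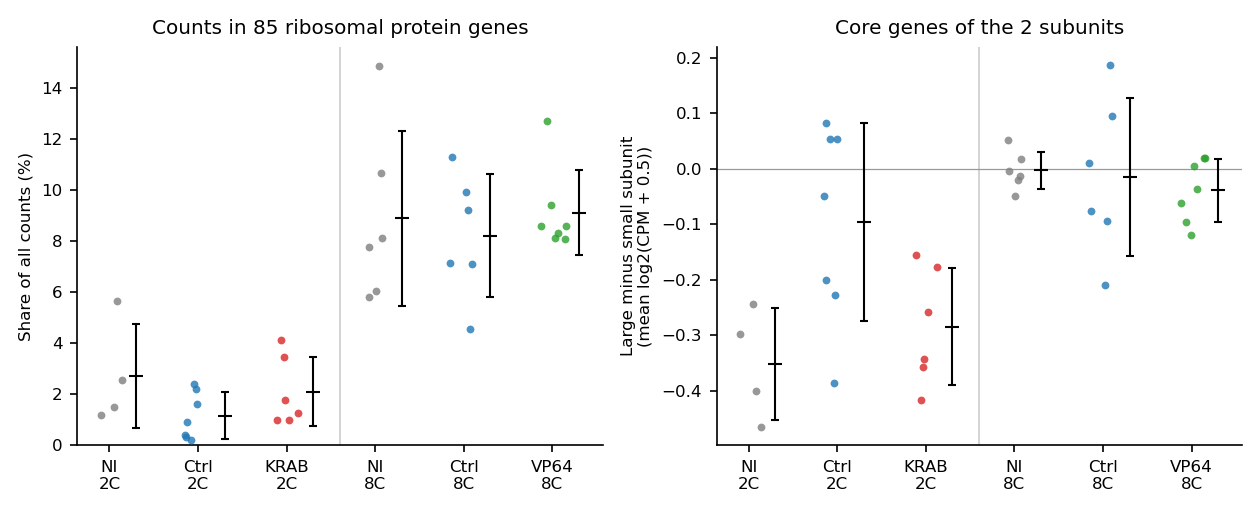
The share of all counts in the 85 genes (left, %) and the mean log2(CPM + 0.5) of 46 large minus 31 small subunit core genes (right) are shown per library by group, with points for libraries and bars for mean ± SD. The 8C libraries hold 4.57% to 14.9% of counts against 0.197% to 5.65% at 2C. The difference, which is not per length, lies below 0 in every NI 2C and KRAB 2C library.

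Between the stages the rise took in nearly the whole set. All 85 genes passed the filter on low counts. In Ctrl, edgeR's quasi-likelihood test called 82 of 85 genes higher at 8C and 0 lower, where 22.5% of all 13158 genes tested were called higher and 39% lower. In NI it called 52 of 85 higher and 0 lower, where 18.5% of all genes were higher and 31.4% lower. The median log2 fold change of the 85 genes was 3.42 in Ctrl and 2.02 in NI, and that of all genes was -0.51 and -0.47. All 52 genes called in NI were among the 82 called in Ctrl. With DESeq2 50 were called higher in NI, against 18.4% of all genes, and 1, Rpl3l, lower, against 36.4%, and 82 were called higher in Ctrl, against 21.4%. Without the 4 libraries with cumulus markers edgeR called 51 higher in NI and 82 in Ctrl, against 16.9% and 19.1% of all genes, and 0 of 85 and 0.0% of all genes in each comparison within a stage. The 3 genes not called in Ctrl were paralogs, Rpl3l, Rpl10l and Rps27l, and the 33 not called in NI were 15 large and 13 small subunit core genes and 5 paralogs.

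**Figure D2:**
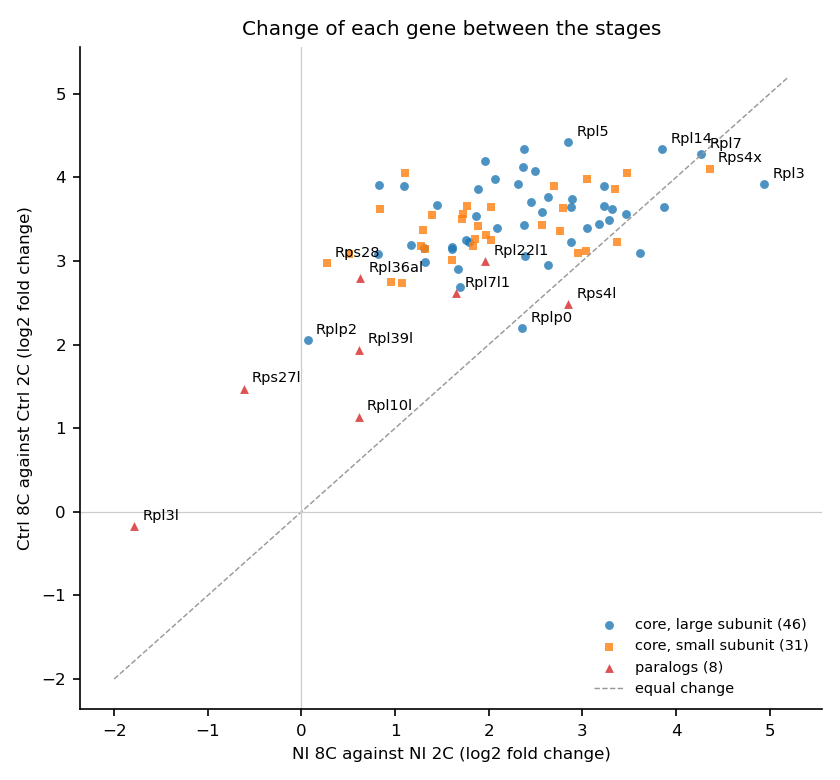
The log2 fold change of each of the 85 genes from 2C to 8C is shown for NI (horizontal) and Ctrl (vertical), with core genes and paralogs marked and a dashed line for equal change. Most core genes lie above the line, and Rpl3l and Rps27l are the genes with a negative value in NI.

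Rpl3, a core protein next to the peptidyl transferase centre, had the highest fold change in NI. Its CPM were 33.8, 90.8, 10.05 and 56.8 in the 4 NI 2C libraries and 702 to 1929 with a median of 1585 in NI 8C. Every 8C library was above every 2C library, and the log2 fold change was 4.94 ± 0.74 (SE, adjusted p = 1.27e-06, edgeR). In Ctrl, Rpl3 went from 15.7 to 332 CPM (median 48.8) to 733 to 2538 (median 1155), again without overlap, a log2 fold change of 3.92 ± 0.55 (adjusted p = 2e-07). The next highest in NI were Rps4x, an X-linked small subunit protein (4.36 ± 0.76), Rpl7 (4.27 ± 0.75) and Rpl8 (3.87 ± 0.65), all proteins with long coding sequences for this set, of 774 to 1212 bases. In Ctrl the highest were Rpl5, Rpl14, Rpl35a and Rpl7, at log2 fold changes of 4.42, 4.34, 4.33 and 4.28.

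Rpl5 and Rpl11 bind 5S ribosomal RNA and, when free of the ribosome, hold the p53 inhibitor Mdm2. Rpl5 was at 129, 129, 346 and 1377 CPM in NI 2C and at 1848 to 6391 (median 3170) in NI 8C, and at 36.7 to 437 (median 94.4) in Ctrl 2C and 1490 to 7693 (median 2759) in Ctrl 8C. Both genes rose in both arms without overlap, Rpl5 by 2.85 ± 0.73 and 4.42 ± 0.63 on the log2 scale and Rpl11 by 2.38 ± 0.65 and 3.43 ± 0.54 in NI and Ctrl. Of 9 genes mutated in Diamond-Blackfan anaemia, a failure of red cell production, 6 were called higher in NI and 9 in Ctrl. Of 9 proteins lining or flanking the exit tunnel, 5 were called higher in NI and 9 in Ctrl, and of 5 proteins of the mRNA channel and decoding site 3 and 5. Over all genes 18.5% were called higher in NI and 22.5% in Ctrl, and of the 77 core genes 49 and 77. These lists therefore did not stand out from the core set.

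The P stalk, formed by Rplp0 with Rplp1 and Rplp2, recruits elongation factors to the large subunit, and Rplp2 and Rplp0 had the lowest fold changes of the 77 core genes in Ctrl. Rplp0 was at 265, 912, 394 and 754 CPM in NI 2C and at 1852 to 4569 (median 2812) in NI 8C. The groups did not overlap, and the log2 fold change was 2.35 ± 0.55 in NI (adjusted p = 0.000544) and 2.20 ± 0.44 in Ctrl (adjusted p = 5.31e-05). Rplp2 was at 1745, 193, 1498 and 96.03 CPM in NI 2C and at 395 to 2289 (median 617) in NI 8C. NI 2C replicates 1 and 3 lay above the median of 8C and the other two below every 8C library, and the log2 fold change was 0.07 ± 0.63 (adjusted p = 0.94). That value was below 0 in 8 alternatives, among them DESeq2 and the fit without TMM factors, and 1.13 (adjusted p = 0.0165, called higher) with the length trend offset described below. In Ctrl, Rplp2 went from 82.0 to 543 CPM (median 185) to 326 to 1429 (median 854), which overlap, at a log2 fold change of 2.05 ± 0.56 (adjusted p = 0.00166). Rps28, a short protein of the small subunit at the mRNA exit, had the same order of libraries: 981, 91.2, 475 and 57.8 CPM in NI 2C against 184 to 1080 (median 355) in NI 8C, and a log2 fold change of 0.27 ± 0.75 (adjusted p = 0.787) against 2.97 ± 0.68 in Ctrl (adjusted p = 0.000265).

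**Figure D3:**
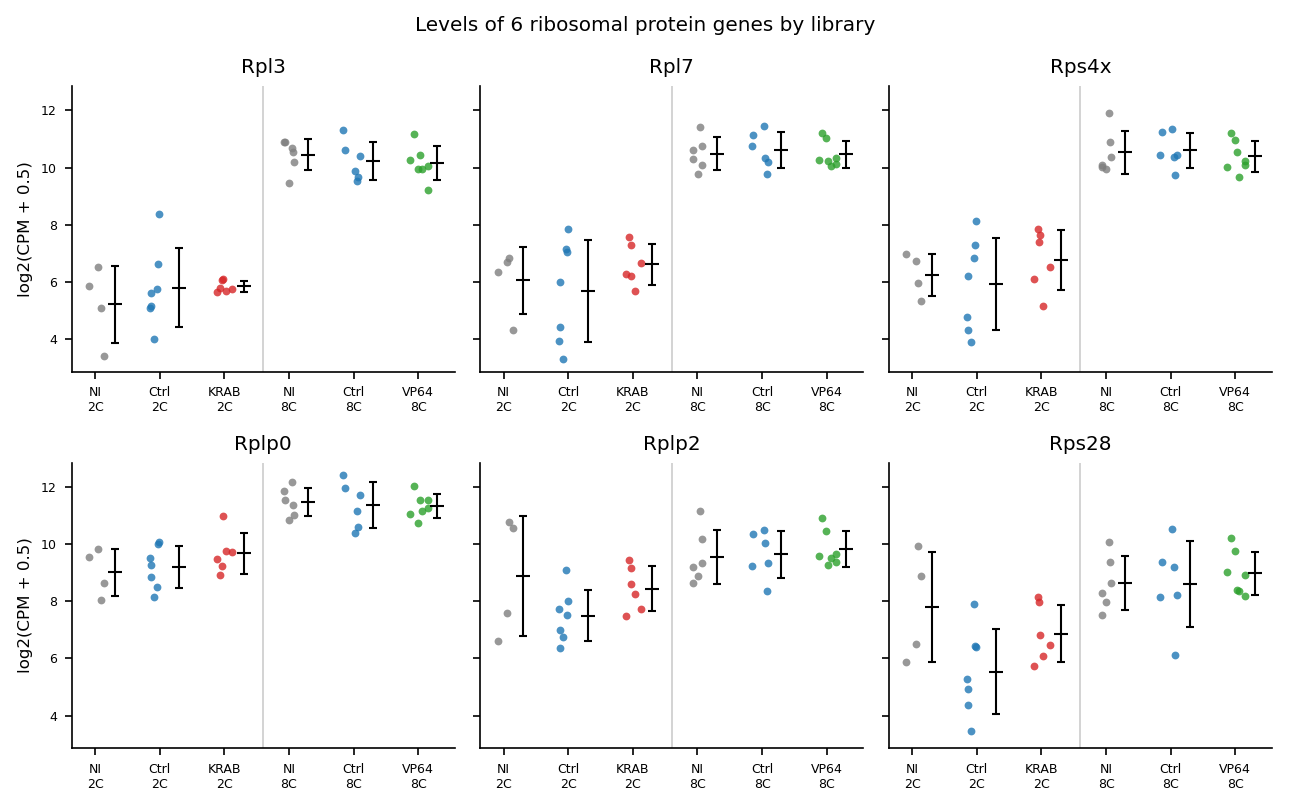
The log2(CPM + 0.5) of Rpl3, Rpl7, Rps4x, Rplp0, Rplp2 and Rps28 is shown per library by group, with bars for mean ± SD. In the upper 3 genes no 8C library reaches down to the 2C level of NI, Ctrl or KRAB, while 2 of the 4 NI 2C libraries of Rplp2 lie at the 8C level.

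The change of stage differed in size between Ctrl and NI by a median of 1.34 on the log2 scale (Ctrl minus NI), with 78 of 85 genes positive, against a median of -0.32 over all genes. The interaction test of edgeR called 0 of the 85 genes, as it called 0.0% of all 13158, with 17 of 85 and 20.4% of all genes at an unadjusted p under 0.05, and DESeq2 called 0 of the 85 and 5.24% of all genes. The median was 0.58 without NI 2C replicate 1. The genes with the smallest p were Rps28 (2.71 ± 0.98), Rpl35 (3.08 ± 1.12), Rps29 (2.78 ± 1.05), Rps21 (2.58 ± 0.99) and Rps27 (2.95 ± 1.18), with adjusted p from 0.123 to 0.151. Without Ctrl 2C replicate 6 the test called 9 of 85, among them Rps28, Rps29, Rps21, Rps27, Rpl35 and Rpl41, all with the larger change in Ctrl, where 3.77% of all genes were called that way.

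The size of the change in NI followed the length of the gene. Of the 24 core genes with a coding sequence under 400 bases 6 were called higher in NI, and of the 31 from 400 to 600 bases 22. Of the 22 over 600 bases 21 were called higher, where 18.5% of all genes were. The median log2 fold changes were 1.35, 2.03 and 3.30 in this order. In Ctrl all 77 were called higher, where 22.5% of all genes were, with medians of 3.48, 3.39 and 3.60. Spearman's rho of fold change and coding length over the 77 core genes, which share their libraries, was 0.77 in NI, 0.08 in Ctrl and -0.83 for the interaction. Other genes with short transcripts also differed between the arms: those of up to 600 bases had a median log2 fold change of -0.65 in NI and 1.02 in Ctrl, and those over 2000 bases -0.72 and -0.92. An alternative chosen after seeing the data took the smooth trend with transcript length among other genes out of each library. It called 78 of 85 genes higher in NI and 1 lower, Rpl3l, where 25.6% of all genes were called higher and 25.4% lower, and 82 in Ctrl, where 34% were. Rps28 in NI was then at 1.78 (adjusted p = 0.000429, edgeR), and the median difference between the arms was 0.48. What made libraries differ by transcript length was not tested.

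**Figure D4:**
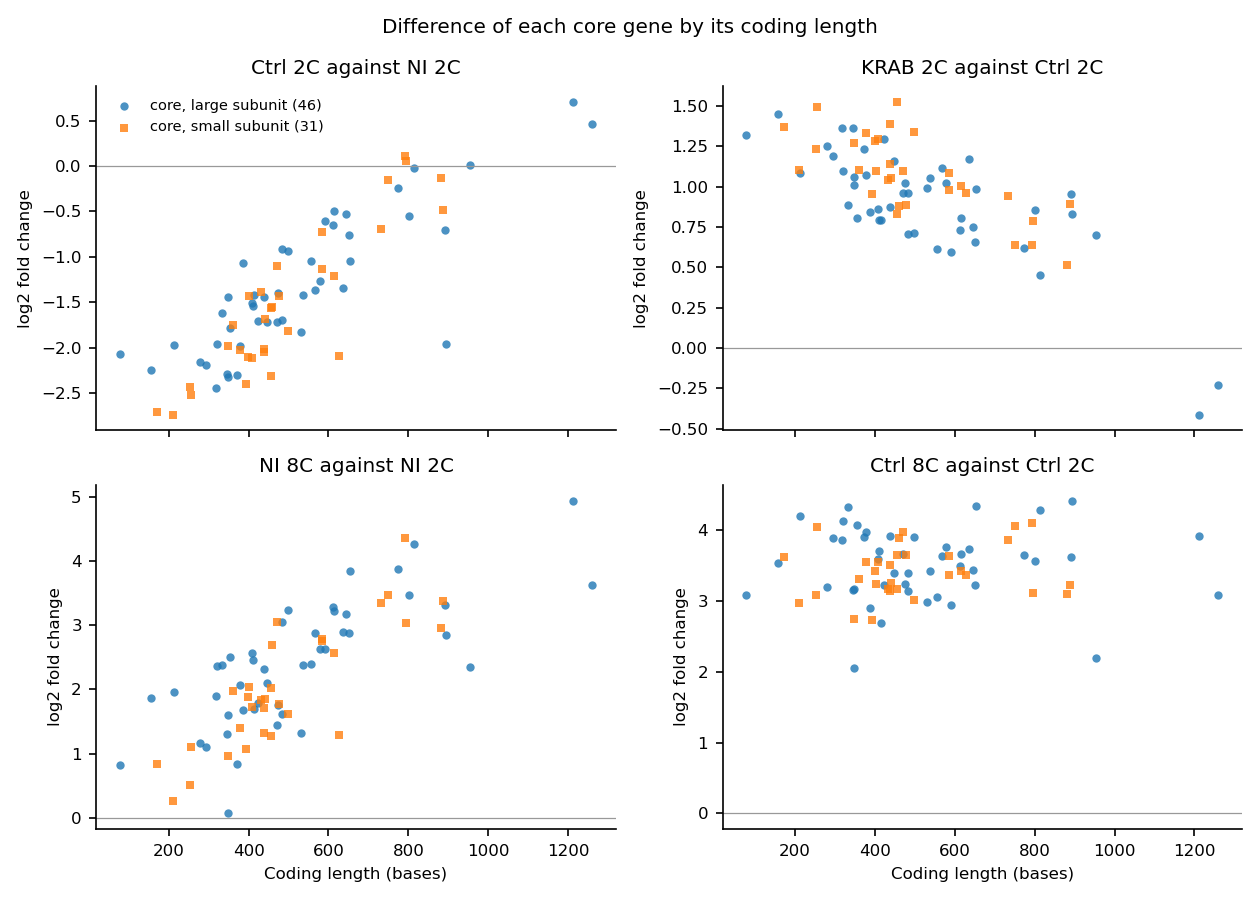
The log2 fold change of the 77 core genes is plotted against the length of their coding sequence (bases) for 2 comparisons at 2C and for the change of stage in NI and in Ctrl. The values rise with length for Ctrl 2C against NI 2C and for NI between the stages (rho 0.83 and 0.77), fall for KRAB against Ctrl (rho -0.67) and lie level for Ctrl between the stages (rho 0.08).

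Comparisons within 2C ask whether the labelled treatments moved these genes before the 8-cell stage. KRAB against Ctrl had 0 of 85 genes called, as 0.0% of all 11799 genes, with 1 of 85 at an unadjusted p under 0.05. The median log2 fold change was 1.01, with 83 of 85 genes higher in KRAB, against -0.13 over all genes, and it was 1.57 without Ctrl 2C replicate 6. The smallest p belonged to Rpl22l1, which was at 1.14 to 18.6 CPM (median 3.70) in Ctrl and 5.21 to 32.6 (median 13.0) in KRAB, overlapping, with a log2 fold change of 1.52 ± 0.70 (adjusted p = 0.307, edgeR). Rps10 and Rps13 followed, at 1.34 ± 0.66 and 1.53 ± 0.78. DESeq2 called 0 of the 85 and 2.05% of all genes.

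Ctrl against NI at 2C also had 0 of 85 called by edgeR and 0.0% of all genes, with 36 of 85 at an unadjusted p under 0.05, all lower in Ctrl, where 23.4% of all genes had such a p. The median was -1.51, with 80 of 85 lower in Ctrl, against 0.07 over all genes. It was -0.61 without NI 2C replicate 1 and -2.26 without Ctrl 2C replicate 6. DESeq2 called 4 genes lower in Ctrl, Rplp2, Rps15a, Rps28 and Rps29, where it called 3.08% of all genes lower, and edgeR without Ctrl 2C replicate 6 called 26 lower, where 6.49% of all were lower. The smallest p in edgeR belonged to Rps15a (-2.40 ± 0.69, adjusted p = 0.121), Rps28 (-2.74 ± 0.85, adjusted p = 0.125) and Rplp2 (-2.32 ± 0.73, adjusted p = 0.125). No gene of the 85 separated the 2 groups, but the share over all genes was not computed, so this is not read as a trait of the set. KRAB against NI had 0 of 85 and 0.0% of all genes called by edgeR and by DESeq2, 0 of 85 at an unadjusted p under 0.05 and a median of -0.55. The sign of this median rested on NI 2C replicate 1, without which it was 0.36 with 74 of 85 genes higher in KRAB, and it was -0.87, -0.36 and -0.36 without KRAB 2C replicates 5, 2 and 4. Its smallest p again belonged to Rps15a, Rps28 and Rplp2, at -1.45 ± 0.71, -1.64 ± 0.88 and -1.32 ± 0.76.

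Length moved with these differences too. In Ctrl against NI the 24 core genes under 400 bases had a median of -2.13 and the 22 over 600 bases -0.51 (rho 0.83 over the 77), and in KRAB against Ctrl 1.21 and 0.77 (rho -0.67). Other genes with transcripts of up to 600 bases had medians of -1.55 and 0.82 in the same comparisons, and those over 2000 bases 0.18 and -0.30. Within libraries, the core genes under 400 bases minus those over 600 bases differed by 1.91, -0.73, 1.05 and -1.0 in mean log2(CPM + 0.5) in NI 2C, by -1.59 to 0.40 (median -1.37) in Ctrl 2C and by -0.96 to 0.34 (median -0.62) in KRAB 2C. NI 2C replicates 1 and 3, with the 2 highest values, held 5.65% and 2.56% of counts in the 85 genes and had the 2 lowest total counts of their group. With the length trend taken out, edgeR called 0 of the 85 and 0.0% of all genes in each comparison at 2C, and the medians were 0.45 for KRAB against Ctrl and -0.55 for Ctrl against NI. Total counts had medians of 2345000 in NI, 7176000 in Ctrl and 2636000 in KRAB 2C, and the part of depth and length in the differences was not tested.

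At 8C the 3 groups differed little. In VP64 against Ctrl, Ctrl against NI and VP64 against NI, edgeR called 0 of 85 genes and 0.0% of all 9850 genes each time, 0 of 85 had an unadjusted p under 0.05, and DESeq2 called 0 of the 85, against 0.0102%, 0.0102% and 0.213% of all genes. The medians of the 85 genes were -0.05, 0.00 and 0.02. The values ran from -0.61 (Rpl23a) to 0.64 (Rpl22l1) for VP64 against Ctrl, with standard errors of 0.29 to 0.67, and from -0.89 (Rps4l) to 1.04 (Rpl35) for Ctrl against NI. Rps6, the target of S6 kinase, had the smallest p in VP64 against Ctrl (-0.52 ± 0.41) and Rps4l in the other two (-0.89 ± 0.50 and -0.71 ± 0.48). The medians had no fixed sign. Leaving out 1 library at a time moved that for VP64 against Ctrl between -0.25, without VP64 8C replicate 6, and 0.30, without Ctrl 8C replicate 6. Without NI 8C replicate 6 the medians against NI were 0.425 in Ctrl and 0.434 in VP64, with 83 and 80 of 85 genes positive. For VP64 against Ctrl the fit without TMM factors gave 0.21, and without the 2 libraries with TMM factors of 0.503 and 0.624, Ctrl 8C replicate 6 and VP64 8C replicate 7, the medians were 0.16, -0.28 and -0.14.

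The balance of the subunits was compared next. The mean log2(CPM + 0.5) of the large minus the small core genes was -0.35 ± 0.10 (SD, n = 4) in NI 2C, -0.10 ± 0.18 (n = 7) in Ctrl 2C, -0.28 ± 0.10 (n = 6) in KRAB 2C, and -0.00 ± 0.03 (n = 6), -0.01 ± 0.14 (n = 6) and -0.04 ± 0.06 (n = 7) in NI, Ctrl and VP64 8C. Each library of NI and KRAB 2C lay below 0. Called members between the stages were 31 of 46 large and 18 of 31 small subunit genes in NI, and 46 of 46 and 31 of 31 in Ctrl. Over all genes 18.5% were called higher in NI and 22.5% in Ctrl, and the calls in NI also followed coding length, as given above. Per kilobase of transcript, the most abundant genes of the large subunit in Ctrl 8C were Rpl41, Rpl15, Rpl10 and Rpl13, at 8912, 3326, 3104 and 2860 CPM per kb, and in Ctrl 2C Rpl41, Rplp2, Rplp0 and Rpl10, at 1054, 514, 479 and 287. In the small subunit, Rps27 and Rps29 were among the most abundant in Ctrl at both stages, at 4490 and 3797 CPM per kb at 8C and at 274 and 310 at 2C. The levels of the 77 core genes spread less evenly at 2C in NI, with an SD of 1.35 in log2 CPM per kb against 0.84 in NI 8C, and about equally in Ctrl, at 0.997 and 0.955.

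Members were also set against the set itself, with the geometric mean of the 77 core genes as the scale, which shows who rose more or less than the rest. Since most mRNAs did not rise with the ribosomal proteins, 67.1% of all genes were called lower and 1.21% higher in NI on this scale, and 87.7% and 0.403% in Ctrl. Within the 85 genes 12 were called lower and 4 higher in NI, and 10 lower and 3 higher in Ctrl. The p were adjusted over all 13158 genes, most of them called lower, so the threshold of 0.05 does not hold within the 85 genes. In Ctrl the 3 called higher had unadjusted p of 0.0343 to 0.0397 and adjusted p of 0.0393 to 0.0453 (edgeR). With the summed counts of the 85 genes as the scale, 8 were lower and 7 higher in NI, against 64.9% and 1.52% of all genes, and 8 lower and 10 higher in Ctrl, against 85.1% and 0.593%. The number called higher in Ctrl also moved between 0, without Ctrl 2C replicate 5, and 4, without Ctrl 2C replicate 3, and it was 1 without any of Ctrl 2C replicates 1, 2 and 7 and Ctrl 8C replicates 1 and 2. Those lower in both arms were Rplp2, Rps15a and the paralogs Rpl3l, Rpl10l, Rps27l and Rpl39l, and the one higher in both was Rpl7 (1.51 ± 0.55 and 0.97 ± 0.45). In NI, Rpl3 (2.08 ± 0.72), Rpl14 (1.38 ± 0.53) and Rps4x (1.26 ± 0.55) were the others called higher, and Rps28 and Rps21 (-1.80 ± 0.51 and -1.57 ± 0.47) were the core genes with the most negative values after Rplp2 (-2.11 ± 0.55). Rplp2, Rps15a and Rpl14 shared 76.5%, 45.9% and 54.3% of their words with other genes of the table, so their levels are uncertain to that extent. In Ctrl, Rpl35a (0.94 ± 0.43) and Rpl36a (0.87 ± 0.41) were higher, and Rplp2 (-2.15 ± 0.51) and Rplp0 (-1.90 ± 0.64) were lower. Among core genes called in NI, Rpl3, Rpl7 and Rpl14 (higher) code over 1212, 813 and 654 bases, and Rplp2, Rps15a and Rpl41 (lower) over 348, 393 and 78. With the length trend offset 4 were higher and 14 lower in NI, against 245 and 8873 of all 13158 genes. In Ctrl 8 were higher and 15 lower, against 213 and 10314. The part of length in these calls was not tested.

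Several paralogs lost ground to their parent genes between the stages. The log2 ratio of paralog to parent was compared for 8 pairs and 8 comparisons by an exact two-sided permutation test over libraries, adjusted over the 64 tests. It was called in 9, all of them lower at 8C: Rpl3l to Rpl3, Rpl7l1 to Rpl7 and Rps27l to Rps27 in both arms, Rpl36al to Rpl36a in NI, and Rpl39l to Rpl39 and Rps4l to Rps4x in Ctrl. All 9 had an adjusted p of 0.0339, and 210 splits in NI allow no p below 0.00476. With any 1 of the 10 NI libraries left out only 84 or 126 splits remain and the 4 calls in NI were lost, at adjusted p of 0.0508 to 0.0924, while the differences were -1.73 to -1.61 for Rpl36al, -7.64 to -6.52 for Rpl3l, -3.07 to -2.26 for Rpl7l1 and -2.34 to -1.47 for Rps27l. In Ctrl the calls of Rpl39l and Rpl3l were lost without any 1 of 10 and 11 of the 13 libraries, and leaving out Ctrl 8C replicate 2 ended all 9 calls. With a pseudocount of 0.1 CPM the ratio of Rpl3l to Rpl3 in Ctrl was no longer called (-3.59, adjusted p = 0.0975). Of the 48 tests within a stage 0 were called.

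Rps27l was the paralog with most mRNA per length. It was at 2315, 229, 2100 and 211 CPM in NI 2C and 298 to 2504 (median 370) in NI 8C, and at 159 to 1218 (median 366) in Ctrl 2C and 247 to 4949 (median 553) in Ctrl 8C. These groups overlapped, and the log2 fold change was -0.62 ± 0.77 in NI (adjusted p = 0.518) and 1.47 ± 0.67 in Ctrl (adjusted p = 0.0551). In 7 alternatives, 5 of them leaving out 1 library, Rps27l was called higher in Ctrl, at adjusted p of 0.0149 to 0.0496. Its parent Rps27, a zinc finger protein of the small subunit, was at 95.04 to 1362 CPM in NI 2C and 593 to 2096 in NI 8C. Per kilobase, Rps27l averaged 926 and Rps27 274 CPM in Ctrl 2C, and 2570 and 4490 in Ctrl 8C, so that the order of the means turned. The log2 ratio fell by 4.07 ± 1.05 (SE) in Ctrl, without overlap, and by 2.04 ± 0.62 in NI.

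Rpl39l, whose sequence stands above beside that of Rpl39, was at 402.5, 71.4, 98.4 and 65.9 CPM in NI 2C and 106 to 666 (median 143) in NI 8C, and at 9.25 to 204 (median 24.9) in Ctrl 2C and 33.5 to 559 (median 169) in Ctrl 8C. It rose in Ctrl by 1.94 ± 0.66 on the log2 scale (adjusted p = 0.0111), a call lost without Ctrl 8C replicate 6 (1.37, adjusted p = 0.0703), without both libraries with low TMM factors (1.38, adjusted p = 0.0687) and without TMM factors (1.32, adjusted p = 0.0672), and its value in NI was 0.61 ± 0.77 (adjusted p = 0.52). The ratio to Rpl39 was -0.29 ± 0.30 (SD, n = 4) in NI 2C and 0.01 ± 0.79 (n = 7) in Ctrl 2C, and -1.40 ± 0.54 (n = 6) and -1.78 ± 0.58 (n = 6) at 8C. Per kilobase Rpl39l and Rpl39 averaged 102 and 88.3 CPM in Ctrl 2C, and 387 and 1021 in Ctrl 8C.

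Rpl36al, a retrogene copy expressed widely, averaged 876 CPM per kb against 232 for Rpl36a in NI 2C, and 1353 against 1188 in NI 8C. Its ratio to Rpl36a was between 1.97 and 2.23 in the 4 NI 2C libraries and 0.39 ± 0.24 (SD, n = 6) in NI 8C, without overlap, and the gene itself rose in Ctrl (2.80 ± 0.70, adjusted p = 0.000744) while its value in NI was 0.63 ± 0.79 (adjusted p = 0.522). Rpl7l1, a relative of Rpl7 that acts in the assembly of the large subunit, rose in both arms (1.65 ± 0.55 and 2.62 ± 0.47), less than Rpl7, so that its ratio fell by 2.81 ± 0.63 in NI and 1.78 ± 0.41 in Ctrl. Rps4l, annotated by GENCODE as a transcribed processed pseudogene, rose by 2.85 ± 0.69 in NI and 2.49 ± 0.55 in Ctrl, and Rpl22l1 by 1.97 ± 0.75 and 2.99 ± 0.65, with a ratio to Rpl22 that differed by -0.17 ± 0.43 and -0.18 ± 0.36 between the stages. The Rpl22l1 call in NI was lost without any 1 of NI 2C replicates 2, 3 and 4 or NI 8C replicate 6 (adjusted p from 0.0778 to 0.161) and without TMM factors (adjusted p = 0.0636).

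Rpl3l was the paralog with least mRNA per length in every group, and Rpl10l was below its parent throughout. Rpl3l was at 15.4, 7.90, 9.34 and 12.5 CPM in NI 2C and 1.19 to 8.04 (median 2.48) in NI 8C, with 0 to 14.7 in Ctrl 2C and 0.958 to 12.6 in Ctrl 8C, and its log2 fold change was -1.78 ± 0.87 in NI (adjusted p = 0.0857) and -0.17 ± 0.78 in Ctrl (adjusted p = 0.862). In 5 alternatives, DESeq2 and the fit without TMM factors among them, Rpl3l was called lower in NI, at adjusted p of 0.0342 to 0.0479. Against a parent that rose, its ratio fell by 7.06 ± 0.84 in NI and 4.00 ± 0.97 in Ctrl. Rpl10l averaged 67.8 CPM per kb in NI 2C and 104 in NI 8C beside 362 and 3281 for Rpl10, and its own log2 fold change was 0.61 ± 0.73 in NI (adjusted p = 0.499) and 1.14 ± 0.62 in Ctrl (adjusted p = 0.108, and 0.0376 without Ctrl 2C replicate 6).

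**Figure D5:**
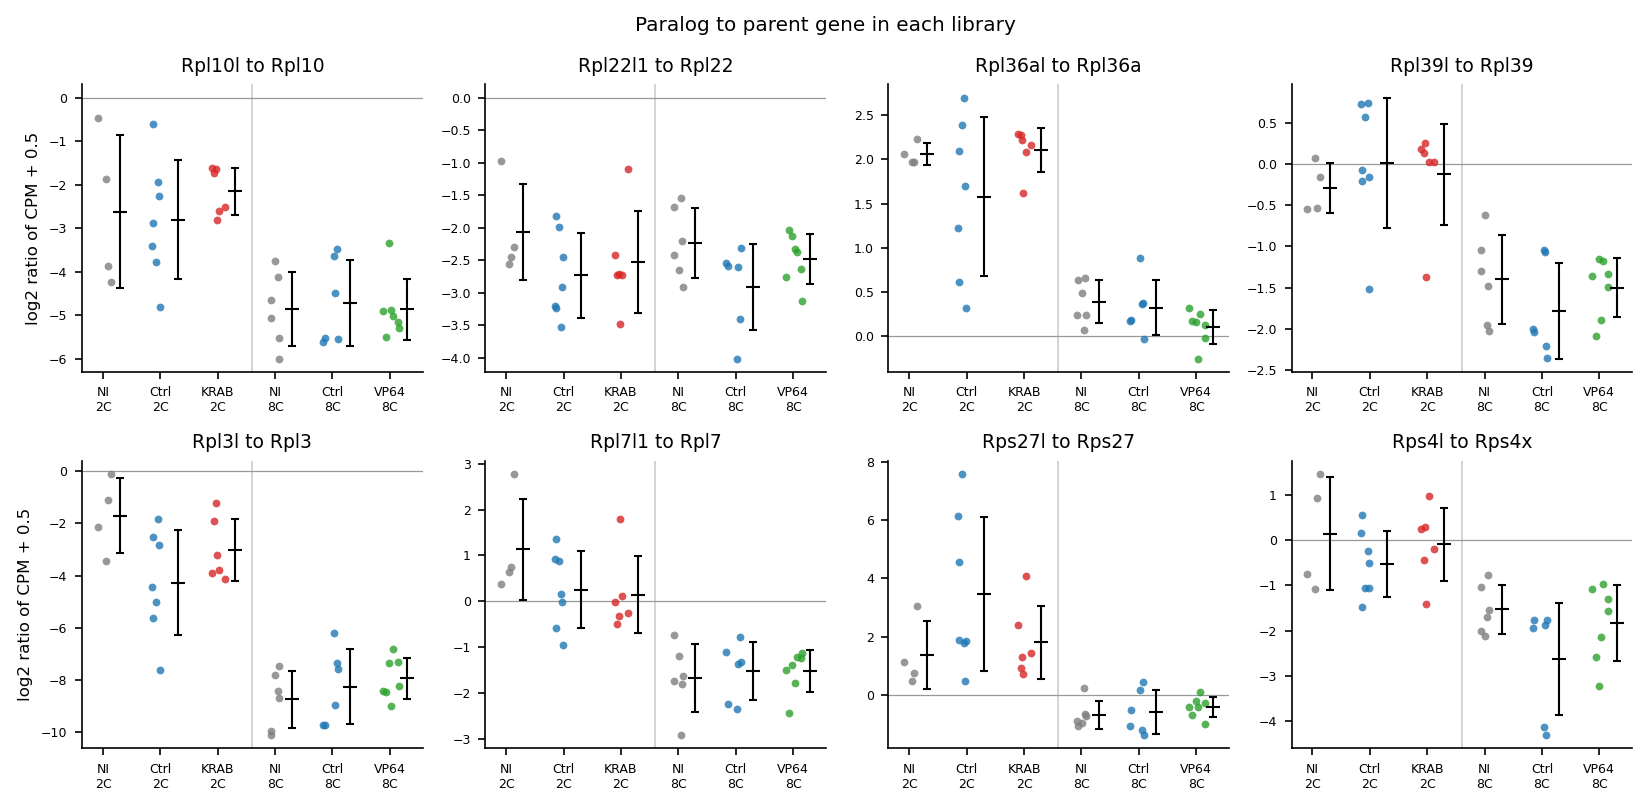
The log2 ratio of paralog to parent gene (CPM + 0.5) is shown per library by group for 8 pairs, with bars for mean ± SD. Ratios not per length show changes between groups only: 7 of the pairs are lower on average in each 8C group than in each 2C group, and Rpl22l1 to Rpl22 is not.

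Ribosomal proteins whose symbols fall outside the rule were examined beside the set. Gnb2l1, the older symbol of Rack1, which sits on the head of the small subunit, rose by 5.12 ± 0.58 in NI and 3.44 ± 0.42 in Ctrl. Fau, which encodes a fusion of a ubiquitin-like protein with a ribosomal protein, rose by 3.64 ± 0.66 in Ctrl, and its value in NI was 1.11 ± 0.73 (adjusted p = 0.201).

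The other lists are read against the 18.5% of all genes called higher and 31.4% lower in NI, and 22.5% and 39% in Ctrl. Of 13 translation factors and related genes listed as TOP mRNAs, 10 were called higher in NI and 11 in Ctrl, and 0 lower. The promoter table held 7 of the 13, of which 2 had the long run and 4 the short one. Examples were Eef1g (5.48 ± 0.79 and 3.97 ± 0.58), Eif3e (2.91 ± 0.64 and 3.19 ± 0.52) and Eef1d (2.83 ± 0.48 and 2.67 ± 0.38). Of 11 chaperones and import receptors of ribosomal proteins 6 were called higher in each arm and 0 lower, led in Ctrl by Tsr2, the escort of Rps26 (5.05 ± 0.94 in NI and 4.01 ± 0.70 in Ctrl), Ipo5 (2.75 ± 0.68 and 1.95 ± 0.53) and Ltv1 (1.58 ± 0.63 and 1.78 ± 0.52). Of 9 regulators of TOP mRNAs and ribosome production 4 were higher in each arm, and 2 lower in Ctrl. Eif4ebp1, an inhibitor of cap-dependent initiation, rose by 2.93 ± 0.66 in NI and 4.23 ± 0.56 in Ctrl, Larp4 by 2.46 ± 0.60 and 2.95 ± 0.50 and Myc by 3.86 ± 0.92 and 2.74 ± 0.69. The kinase Mtor fell by 1.11 on the log2 scale in Ctrl (SE 0.46, adjusted p = 0.0333) and its partner Rptor fell by 1.23 (SE 0.49, adjusted p = 0.0274), with values of -1.11 ± 0.51 and -0.89 ± 0.55 in NI (adjusted p = 0.0681 and 0.173).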

How the data were processed

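The authors deposited expected counts for each gene symbol and each of 36 pooled embryo libraries. Per the submitters' processing notes the tools were RSEM and Bowtie2 and the build was mm10, while tool versions and the annotation were not found in the labels. In RSEM, a read that fits more than 1 gene is shared out among the candidates. All 36 columns were mapped by title, and per-sample columns not used numbered 0. Groups came from the labels of treatment and stage, and replicate numbers follow accession order and pair nothing.

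Rounded values went into edgeR 4.0.16 (robust quasi-likelihood test, limma 3.58.1, R 4.3.3) with TMM factors, filterByExpr (minimum count 10, minimum total 15) and Benjamini-Hochberg adjustment at 0.05, over 11799 genes at 2C, 9850 at 8C and 13158 over all libraries. Fits within a stage used all libraries of that stage, and changes of stage and the interaction all 36. Values are log2 fold change ± SE. CPM are relative to the TMM-scaled total. Paralog ratios used a pseudocount of 0.5 CPM and an exact permutation test. Alternatives were DESeq2 1.42.0, other scalings, no filter, other pseudocounts and leaving out each library. The length trend offset and the fits without 4 libraries with cumulus markers or 2 with low TMM factors were added after seeing the data. The scripts were tested on simulated data. Transcript lengths come from GENCODE vM21.

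Named were all paralogs and parents, the 4 highest and lowest fold changes per change of stage among genes of at least 10 CPM, the 3 smallest p within a stage, up to 5 smallest interaction p, the most abundant genes per length, up to 4 per direction against the core set, members not called in Ctrl, ribosomal proteins outside the symbol rule and up to 3 per direction of each other list. Rplp0, Rpl11 and the genes named for single libraries were chosen after their values were seen. Members, lists and alternatives were chosen with earlier results of these data known. Some items that this rule names are not reported here.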

Additional observations from a re-analysis of the deposited data

Results flagged for a closer look

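Library values were compared within 60 sets, which are 10 measures in 6 groups, and 9 values, from 7 libraries, lay far from the others of their group. Chance flags about 1 in 20 such sets. VP64 8C replicate 6 held 12.7% of counts in the 85 genes, against 8.08% to 9.41% in the other libraries of its group, and it had the lowest total count of its group, 1462479. It is also the VP64 library whose 16 cumulus and granulosa markers summed to more than 100 CPM, at 236, with 8 of them at 0. VP64 8C replicate 7 had a log2 ratio of Rpl10l to Rpl10 of -3.35, against -5.50 to -4.88.

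KRAB 2C replicate 1, which had the lowest total count of its group (1296375), stood apart in 3 pairs. Its ratio of Rpl36al to Rpl36a was 1.62 against 2.09 to 2.29, that of Rpl39l to Rpl39 was -1.37 against 0.02 to 0.26, and that of Rpl7l1 to Rpl7 was 1.80 against -0.49 to 0.11. Ctrl 2C replicate 3 had a ratio of Rpl39l to Rpl39 of -1.52 against -0.21 to 0.74.

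NI 2C replicate 4 had a ratio of Rpl22l1 to Rpl22 of -0.97 against -2.56 to -2.29, and NI 2C replicate 3 a ratio of Rpl7l1 to Rpl7 of 2.78 against 0.37 to 0.75. NI 8C replicate 6 had a ratio of Rps27l to Rps27 of 0.26 against -1.07 to -0.65.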

How the results depend on the processing

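The count of members called higher between the stages stayed within 1.5 times of its value in edgeR under other scalings, DESeq2 and no filter, at 35 to 70 in NI and 81 to 84 in Ctrl when libraries were left out singly. The length trend offset, chosen after seeing the data, called 79 in NI, and 23 against the core set in Ctrl. Ctrl against NI at 2C had 4 calls with DESeq2 and 0 to 26 when libraries were left out, and the interaction 0 to 9, each highest without Ctrl 2C replicate 6. The paralog ratios had 8 to 9 calls with other pseudocounts and 0 to 10 when libraries were left out.

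Signs turned for 5 named genes, which edgeR had not called in that comparison. Rplp2 in NI was at -0.250 with DESeq2 and with its size factors in edgeR, -0.187 without TMM factors and -0.076 without the 4 libraries with cumulus markers, and Rps28 in NI at -0.039 with DESeq2 and with its size factors. With the length trend offset Rplp2 and Rps28 in NI were called higher, at 1.125 and 1.779, Rps27l in NI was at 0.020 and Rpl3l in Ctrl at 0.042. Leaving out single libraries gave -0.449 to 0.637 for Rplp2, -0.237 to 1.218 for Rps28 and -0.110 to 1.438 for Rpl10l in NI, and -0.734 to 0.251 for Rpl3l in Ctrl. Over all single genes and ratios, 898 values under alternatives kept direction and side of the threshold, 79 lost the call, 27 gained it and 21 turned. The cause was not tested.

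No paired analysis was possible because replicate numbers were given in accession order and pair no libraries. The fit without TMM factors put the median of all genes at -0.75 in NI and -0.83 in Ctrl, against -0.47 and -0.51 with them. The common biological coefficient of variation was 0.738 at 2C, 0.609 at 8C and 0.703 over all libraries. The standard errors given for single genes were computed from the fold change and F statistic of each gene.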
